A study of Arabidopsis thaliana with 12 samples.

Results

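The genes described here are 10 loci of the FCS-like zinc finger family (FLZ, also known as DUF581) of Arabidopsis thaliana, the family of AT4G17670. They were taken as a list of loci, and each was paired with exactly 1 probe set, so that all 10 were measured among the 17481 probe sets with a gene, of 38408 on the array. The tables used here name these loci by code only and hold no description of them, so the family name rests on the list. The family was selected on the log2 signals of these same arrays, as the family of AT4G17670, a gene already seen to differ between the groups. Signals, differences, intervals and counts past a threshold are therefore given for the 10 genes as a description. No p-value is printed for a single gene of the 10, and passing the threshold only sorts them and is no test of the family.

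Plants balance growth against reserves with a pair of opposing kinases. SnRK1, the plant counterpart of yeast SNF1 and animal AMPK, is active when sugar and energy run low and turns on breakdown of reserves, while the TOR kinase, acting through its partner RAPTOR, drives protein synthesis and growth when nutrients suffice. FLZ proteins are small plant proteins that carry a zinc finger with a Phe-Cys-Ser motif, through which they bind the catalytic subunits of SnRK1. They are regarded as adaptors that bring other proteins to the kinase, and many FLZ genes respond to sugar, darkness or hormones. A seedling kept in the dark lives on its seed reserves, and light starts greening.

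RNA was taken from pools of whole seedlings of ecotype Col-0, 5 days old, in 4 groups of 3 arrays that the labels call biological replicates. In every group the seedlings had grown in darkness for those 5 days, on half-strength MS medium lacking sucrose. The groups were rb10 with a further 1 h of continuous white light at 120 μmol per square metre and second, rb10 kept dark, wild type (WT) with the same light, and WT kept dark. The labels give rb10 only as a genotype name. General knowledge of this work makes rb10 a RAPTOR1B mutant, and the labels do not say whether it is 1 line. Values are log2 signals as deposited. Differences are in log2 units with the standard error (SE) of one limma fit to all 12 arrays, n = 3 arrays per group, and a gene is said to pass the threshold where its Benjamini-Hochberg adjusted p over the 17481 probe sets was under 0.05.

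RAPTOR1 (AT3G08850, also called RAPTOR1B) read 10.89 to 11.13 in rb10 after light, against 11.58 to 11.69 in WT after light. The rb10 dark arrays read 11.06, 11.08 and 11.60, against 11.63 to 11.84 in WT in the dark, so that rb10 dark replicate 3 lay next to WT. Over all tested probe sets that array had a mean correlation of 0.991 with the WT dark arrays and of 0.980 with the other rb10 dark arrays. For 6 of the 10 FLZ genes it lay nearer to the WT dark mean than to the mean of the other rb10 dark arrays. The share of all tested probe sets for which this held was not computed, so the count only describes the 10 genes. The array was kept under its label. Differences printed for the 10 genes that use the rb10 dark group are given with and without it. Array medians were 6.78 to 6.91 in rb10 and 6.72 to 6.82 in WT. Of the markers of whole seedlings, 3 of 6 for cotyledon and plastid, 1 of 8 for root and 3 of 4 for the stomatal lineage were paired with a probe set of their own.

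AT4G17670 had by far the widest range of the 10 genes, and its signal was high in 1 of the 4 groups. It read 5.63, 5.35 and 5.80 in rb10 after light, against 3.36, 3.13 and 2.65 in rb10 in the dark. In WT it read 2.74, 3.14 and 2.87 after light, against 2.31, 2.78 and 2.57 in the dark. The 3 rb10 light arrays stood clear of the other 9 arrays, while the remaining groups overlapped one another, WT after light lying within the spread of rb10 in the dark. The signal in those 3 groups was low, and the mean over the 12 arrays put the gene in the lowest 25% of tested probe sets.

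In rb10, AT4G17670 rose with light by 2.55 (SE 0.20), and by 2.35 (SE 0.19) without rb10 dark replicate 3. The light effect in WT was 0.37 (SE 0.20, 95% interval -0.08 to 0.81) and did not pass. The difference of the light effects was 2.18 (SE 0.29), or 1.98 (SE 0.25) without that array. With every array it ranked 10 from the highest of the 17481 tested. The gene was already seen to differ on these arrays, so this rank only describes it. After light the gene was 2.67 (SE 0.20) higher in rb10 than in WT. No fold is given, since no background level was available for these low signals. In the dark rb10 exceeded WT by 0.49 (SE 0.20), which did not pass, and by 0.69 (SE 0.19), which did, without rb10 dark replicate 3. In RNA from whole seedlings, more cells of a type and more RNA per cell cannot be told apart.

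**Figure D1:**
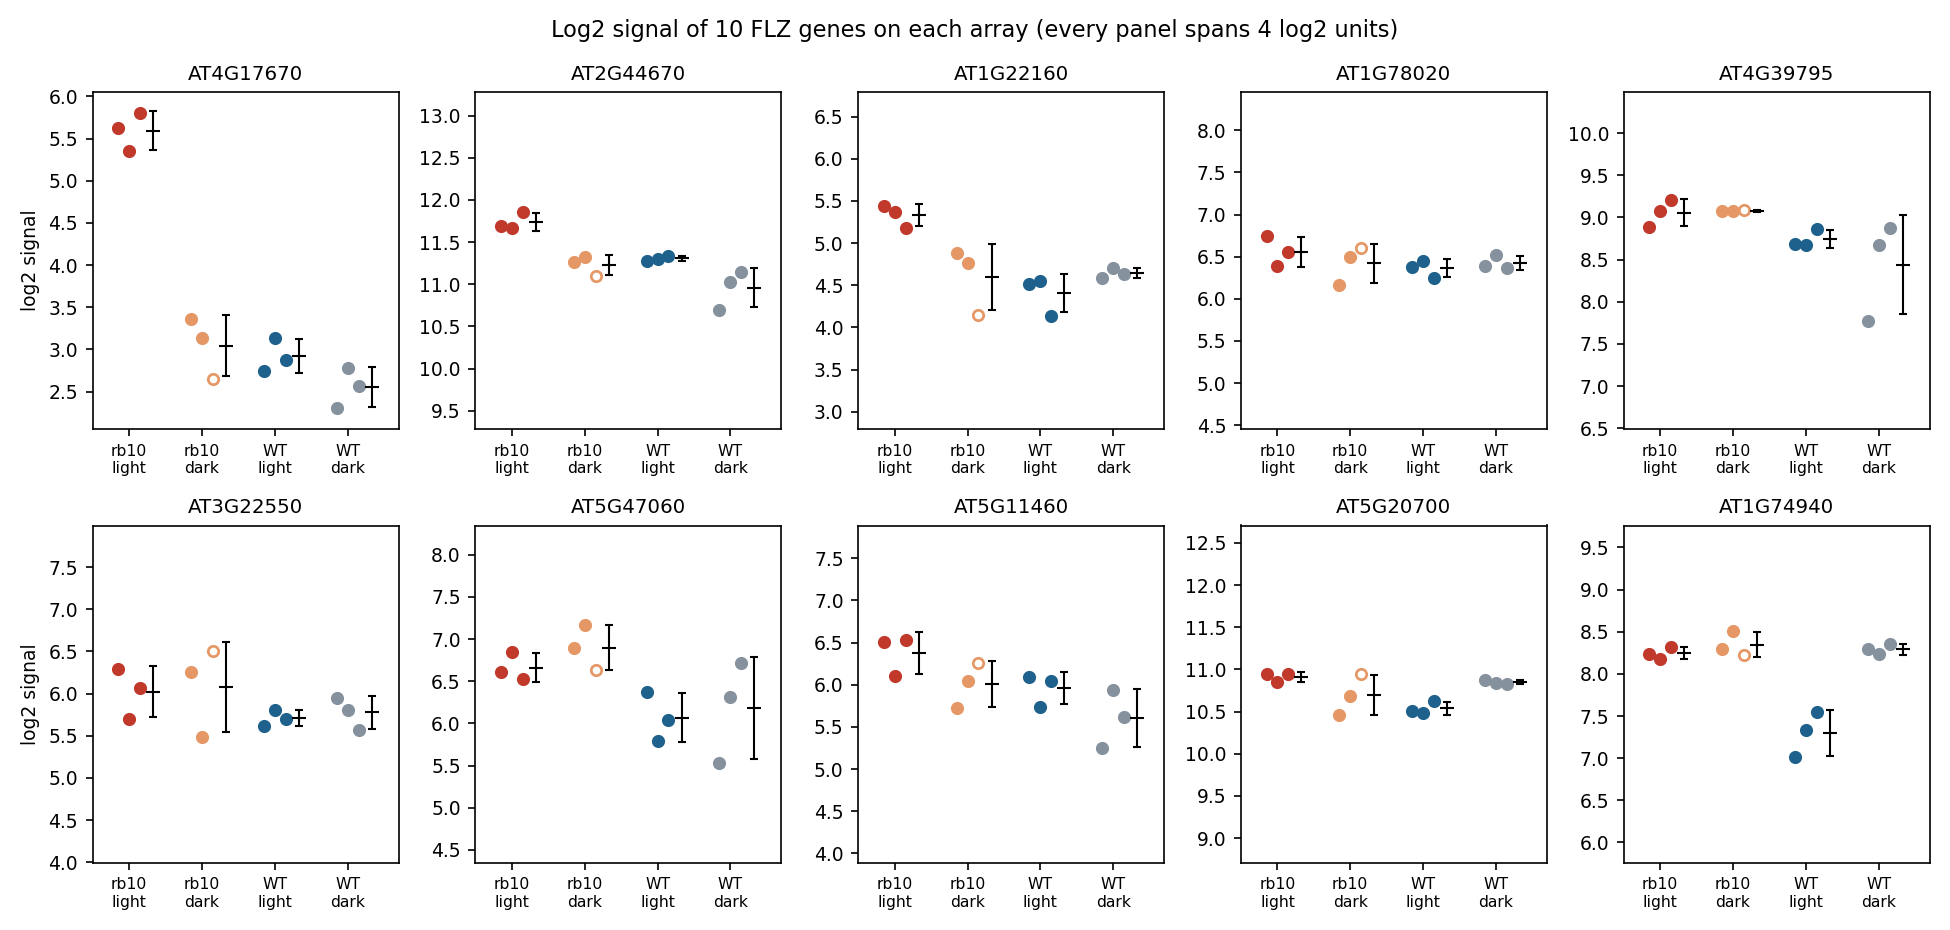
Log2 signal of the 10 FLZ genes on each array, by group, with 3 points per group and, beside them, the mean and SD as a bar; the open point is rb10 dark replicate 3, and every panel spans the same number of log2 units. AT4G17670 reads 5.35 to 5.80 in rb10 after light and at most 3.36 elsewhere, and AT1G74940 reads 7.01 to 7.55 in WT after light and at least 8.18 elsewhere.

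AT1G22160 was also highest in rb10 after light, on a smaller scale. It read 5.44, 5.37 and 5.18 in rb10 after light and 4.88, 4.76 and 4.15 in rb10 in the dark, against 4.51, 4.55 and 4.14 in WT after light and 4.59, 4.71 and 4.63 in WT in the dark. Again the rb10 light arrays lay above all other arrays, and rb10 dark replicate 3 gave the lowest rb10 value. With every array the gene rose by 0.73 (SE 0.18) in rb10 with light, and by 0.51 (SE 0.14), which did not pass, without that array. The light effect in WT was -0.24 (SE 0.18) and did not pass, although the WT light arrays all lay below the WT dark arrays. The difference of the light effects was 0.97 (SE 0.26), or 0.75 (SE 0.19) without rb10 dark replicate 3, and passed in neither. After light the gene was 0.93 (SE 0.18) higher in rb10 than in WT. The call with light in rb10 held in 4 of the 12 fits without 1 array, those without rb10 dark replicates 1 or 2 or WT light replicates 2 or 3 (0.51 to 0.87 over the 12), whereas the call after light held in each.

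AT2G44670 was likewise highest in rb10 after light, with a strong signal and small steps between groups. It read 11.69, 11.67 and 11.86 in rb10 after light and 11.27, 11.32 and 11.10 in rb10 in the dark, against 11.28, 11.30 and 11.34 in WT after light and 10.70, 11.03 and 11.14 in WT in the dark. The rb10 light arrays were again the highest, and the rb10 dark and WT light groups overlapped. Light raised it in rb10 by 0.51 (SE 0.13), or by 0.44 (SE 0.13), which did not pass, without rb10 dark replicate 3. In WT the light effect of 0.35 (SE 0.13) did not pass, though the groups did not overlap. The difference between the light effects was 0.16 (95% interval -0.23 to 0.55), and with that array left out 0.09. After light the gene was 0.43 (SE 0.13) higher in rb10 than in WT. The call with light in rb10 held in 3 of the 12 fits without 1 array, those without a WT dark array (0.44 to 0.56 over the 12), and the call after light in 6 of the 12, being lost without any 1 of the 6 light arrays (0.37 to 0.47).

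AT1G74940 showed another pattern, in which WT after light stood apart. It read 8.24, 8.18 and 8.32 in rb10 after light and 8.30, 8.51 and 8.22 in rb10 in the dark, against 7.01, 7.34 and 7.55 in WT after light and 8.29, 8.23 and 8.36 in WT in the dark. The 3 WT light arrays were the lowest of the 12, and the other 3 groups overlapped. In WT the gene fell with light by 0.99 (SE 0.14), to 0.503 of its dark signal. In rb10 the light effect was -0.10 (SE 0.14, 95% interval -0.40 to 0.21), or -0.16 (SE 0.15) without rb10 dark replicate 3. The light effects differed by 0.89 (SE 0.20), a difference that passed with every array but not without that array (0.83, SE 0.20). It held in 2 of the 12 fits without 1 array, those without rb10 dark replicate 2 or WT light replicate 3 (0.75 to 1.02 over the 12). After light AT1G74940 was 0.95 (SE 0.14) higher in rb10 than in WT, and in the dark the difference was 0.05 (SE 0.14), or 0.11 (SE 0.15) without rb10 dark replicate 3.

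AT5G20700 had its lowest group mean in WT after light, though close to rb10 in the dark. Its signal was 10.95, 10.85 and 10.95 in rb10 after light and 10.46, 10.68 and 10.94 in rb10 in the dark, against 10.51, 10.48 and 10.62 in WT after light and 10.88, 10.84 and 10.83 in WT in the dark. Here rb10 dark replicate 3 lay at 10.94, above the WT dark arrays, while the other rb10 dark arrays lay below them and overlapped WT after light. The light effect was 0.22 (SE 0.12) in rb10, or 0.34 (SE 0.10) without rb10 dark replicate 3 and 0.11 without rb10 dark replicate 1, and -0.31 (SE 0.12) in WT, and none of these passed. Their difference was 0.53 (SE 0.17), which did not pass, and 0.66 (SE 0.14), which did, without that array. After light the gene was 0.38 (SE 0.12) higher in rb10 than in WT, a call that held in 2 of the 12 fits without 1 array, those without rb10 dark replicates 1 or 3 (0.35 to 0.42 over the 12).

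The remaining 5 genes did not pass in any of the 5 comparisons. AT4G39795 read 8.89, 9.07 and 9.21 in rb10 after light and 9.07, 9.08 and 9.09 in rb10 in the dark, against 8.69, 8.67 and 8.86 in WT after light and 7.77, 8.67 and 8.87 in WT in the dark. The rb10 arrays were higher at both light conditions without overlap, by 0.32 (SE 0.23) after light and 0.64 (SE 0.23) in the dark, and WT dark replicate 1 lay well below its group. The 95% interval of the dark difference was 0.13 to 1.15. Without WT dark replicate 1 that difference was 0.31, and without rb10 dark replicate 3 it was 0.64 (SE 0.27).

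AT5G47060 read 6.61, 6.85 and 6.53 in rb10 after light and 6.89, 7.17 and 6.63 in rb10 in the dark, against 6.37, 5.79 and 6.04 in WT after light and 5.53, 6.31 and 6.72 in WT in the dark. It was higher in rb10 by 0.59 (SE 0.27) after light, without overlap, and by 0.71 (SE 0.27) in the dark, with overlap. The dark difference was 0.84 (SE 0.30) without rb10 dark replicate 3 and ranged from 0.38, without WT dark replicate 1, to 0.98, without WT dark replicate 3. AT5G11460 read 6.51, 6.10 and 6.53 in rb10 after light, against 6.09, 5.74 and 6.05 in WT after light, a difference of 0.42 (SE 0.20) with groups that just did not overlap. In the dark it read 5.72, 6.05 and 6.26 in rb10, against 5.25, 5.94 and 5.62 in WT. The groups overlapped there, at a difference of 0.41 (SE 0.20), and without rb10 dark replicate 3 it was 0.28 (SE 0.22).

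AT3G22550 ranged from 5.48 to 6.50 over the 12 arrays and AT1G78020 from 6.16 to 6.74, with overlapping groups in each comparison of 2 groups. After light AT3G22550 differed between rb10 and WT by 0.32 (95% interval -0.22 to 0.85) and AT1G78020 by 0.20 (95% interval -0.10 to 0.50). The rb10 dark arrays of AT3G22550 alone spread from 5.48 to 6.50, its whole range. Light effects of these 5 genes lay between -0.23 (AT5G47060) and 0.37 (AT5G11460) in rb10 and between -0.12 (AT5G47060) and 0.36 (AT5G11460) in WT, and for AT5G11460 the light effects differed by 0.01 (95% interval -0.62 to 0.65). Without rb10 dark replicate 3 the effects in rb10 lay between -0.36 (AT5G47060) and 0.49 (AT5G11460), and the light effects of AT5G11460 differed by 0.14.

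Among the 10 listed genes, rb10 against WT after light was the comparison with the most past the threshold. There 5 of the 10 genes were higher in rb10 and 0 lower, where 9.72% of all tested probe sets were higher and 9.47% lower. AT4G17670, the gene for which the family was chosen, is 1 of the 5, so the count describes the list and tests nothing. All 10 differences were positive, from 0.20 to 2.67, against 48.0% of tested probe sets, and 8 of the 10 genes had rb10 light arrays above every WT light array, against 18.9% of tested probe sets, with 0 below, against 19.7%. Without rb10 dark replicate 3 the same 5 genes passed, where 11.8% of probe sets were higher and 11.8% lower. The count was 3 without any 1 of the 6 light arrays. The median difference was 0.43 for the 10 genes and -0.02 for all tested probe sets. With array medians set equal, the median of all probe sets moved to -0.17 and that of the 10 genes to 0.28. All 10 differences stayed positive, and 3 genes passed, AT4G17670, AT1G22160 and AT1G74940. AT2G44670 (0.28) and AT5G20700 (0.23) then did not pass. Of the 4 further FLZ loci with a probe set of their own, described below, 1 difference was positive and 3 were negative. The positive one was that of AT2G25690 (0.54, SE 0.24), which did not pass. With the deposited values 0 of the 4 passed as higher in rb10 after light and 2 as lower, with a median difference of -0.42.

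**Figure D2:**
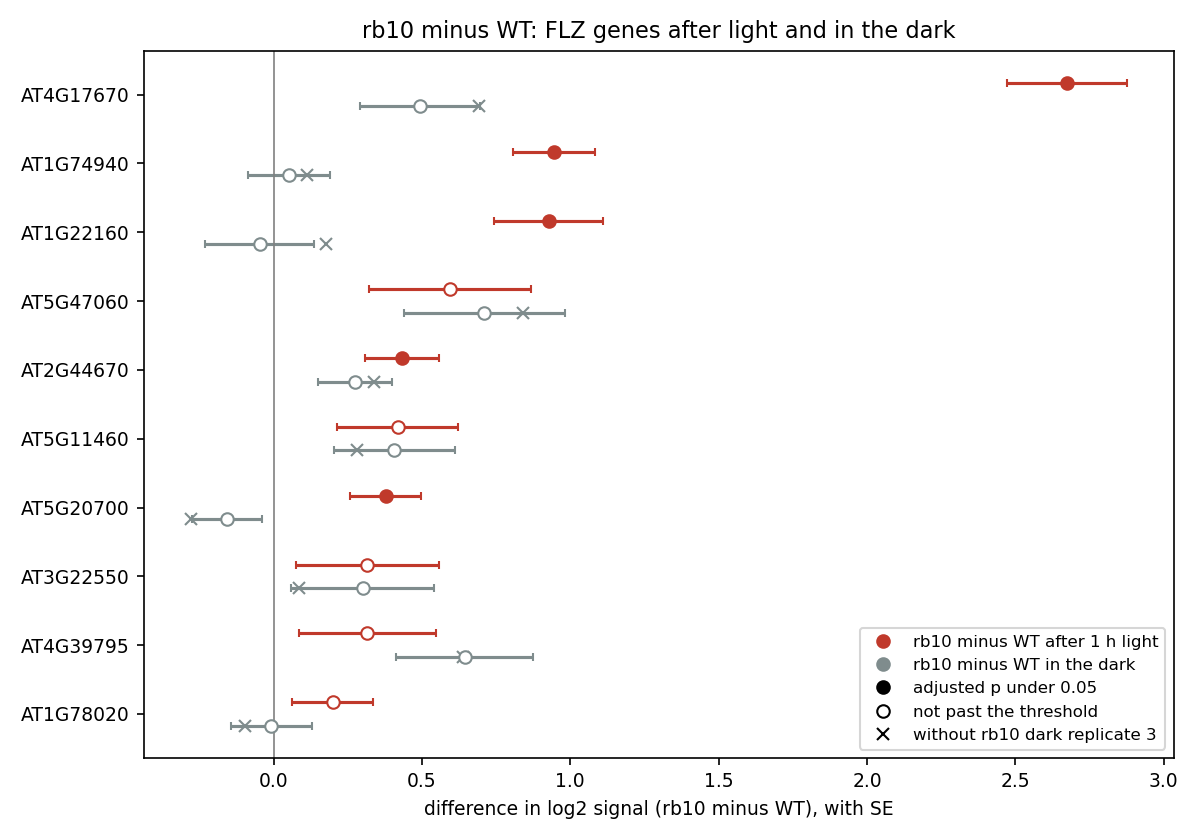
Difference in log2 signal between rb10 and WT for the 10 FLZ genes after 1 h of light (red) and in the dark (grey), with SE bars; filled points passed the threshold over all tested probe sets, and crosses give the dark difference without rb10 dark replicate 3. All 10 red points lie right of zero, from 0.20 to 2.67, and the grey points lie between -0.16 and 0.71.

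In the dark none of the 10 genes passed between rb10 and WT in the limma fit with every array (0 of 10), where 0.00572% of all tested probe sets were higher in rb10 and 0% were lower. An unadjusted p under 0.05 was found for 3 of the 10 and for 14.9% of all tested probe sets. Without rb10 dark replicate 3, AT4G17670 was the 1 gene higher and 0 were lower, where 5.68% of probe sets were higher and 4.39% lower. The median of the 10 differences was 0.29 with every array and 0.23 without that array, against -0.02 and -0.03 for all tested probe sets. Differences were positive for 7 genes with every array and for 8 without it, against 46.6% and 45.8% of tested probe sets. Groups did not overlap for 1 gene that was higher in rb10, where 7.45% of probe sets were so, and for 0 lower, where 8.55% were. Without that array 5 genes were higher and 1 lower without overlap, where 20.1% and 23.3% of probe sets were so.

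Light raised 3 of the 10 genes in rb10, AT4G17670, AT1G22160 and AT2G44670, and lowered 0, where 3.42% of tested probe sets rose and 3.75% fell. Without rb10 dark replicate 3, 1 of the 10 rose, AT4G17670, and 0 fell, where 3.17% of probe sets rose and 3.16% fell, and the count was 1 also without WT light replicate 1 or any 1 rb10 light array. In WT, 0 of the 10 rose and 1 fell, AT1G74940, where 4.62% of tested probe sets rose and 2.27% fell. The median light effect was 0.18 in rb10, or 0.29 without that array, and -0.07 in WT, against -0.03, -0.02 and -0.06 for all tested probe sets. Light and dark arrays did not overlap in rb10 for 3 genes that were higher after light and 0 lower, where 10.8% and 13.7% of probe sets were so. Without that array they were 5 and 1, where 15.9% and 19.4% were so. In WT they were 1 and 3, where 11.1% and 16.5% were so. The difference of the light effects passed for 2 of the 10 genes with every array, AT4G17670 and AT1G74940, where 0.503% of probe sets passed upward and 1.67% downward, and for AT4G17670 and AT5G20700 without it, where 0.589% passed upward and 1.66% downward. In 9 of the 12 fits without 1 array AT4G17670 was the 1 gene to pass. These comparisons share arrays, so a high rb10 light value enters all 3 of those that use the rb10 light group. AT4G17670, for which the family was chosen, is among the genes counted with light in rb10 and for the difference of light effects.

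**Figure D3:**
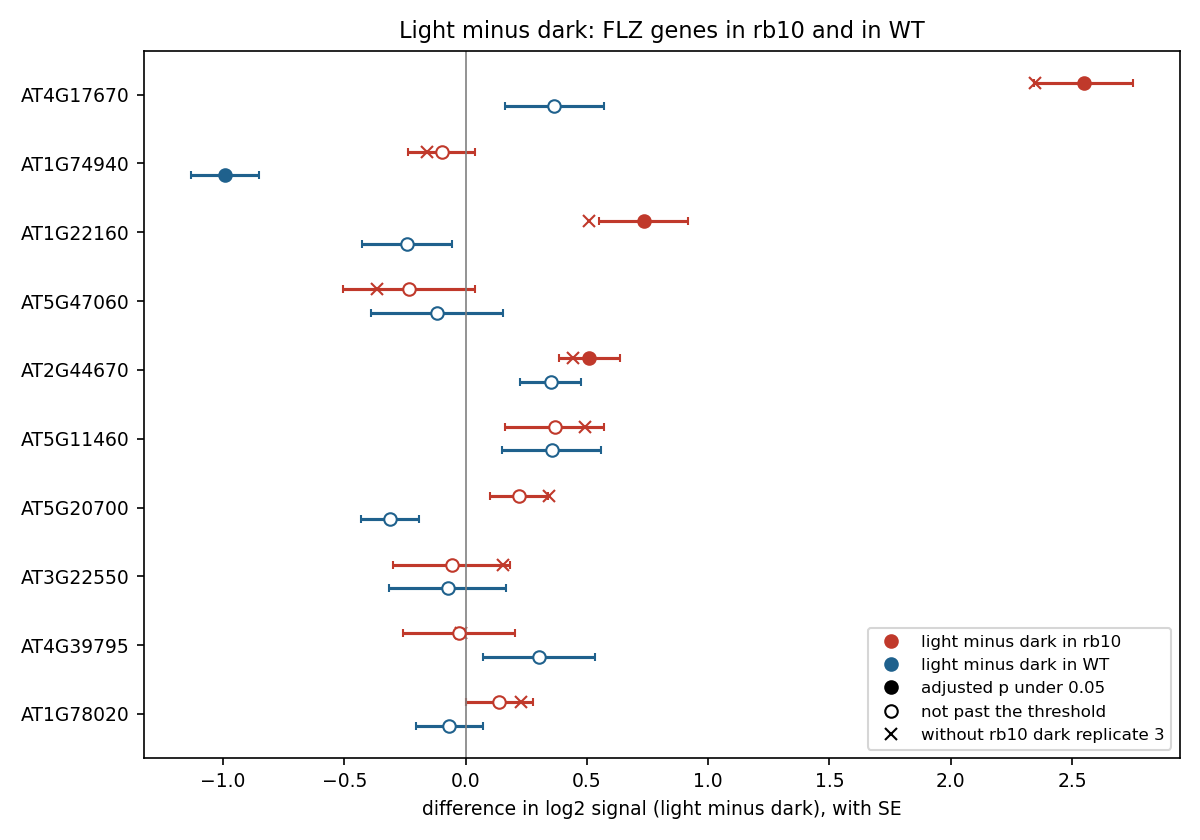
Difference in log2 signal between light and dark for the 10 FLZ genes in rb10 (red) and in WT (blue), with SE bars; filled points passed the threshold, and crosses give the rb10 value without rb10 dark replicate 3. AT4G17670 lies at 2.55 in rb10 and 0.37 in WT, and AT1G74940 at -0.10 in rb10 and -0.99 in WT.

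A further 8 loci were listed as family members from general knowledge, of which 4 had a probe set of their own, and the annotation used here does not describe them. Here the rb10 values were lower for those that passed. AT1G79970 read 10.14, 9.77 and 10.16 in rb10 after light and 9.69, 10.01 and 10.78 in rb10 in the dark, against 10.76 to 10.80 in WT after light and 10.81 to 10.85 in WT in the dark. Apart from rb10 dark replicate 3 the rb10 arrays lay well below WT. After light the difference was -0.75 (SE 0.23, adjusted p = 0.0402), and in the dark -0.67 (SE 0.23, adjusted p = 0.255), or -0.98 (SE 0.14, adjusted p = 0.00256) without that array.

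AT1G19200 read 6.32, 7.51 and 6.24 in rb10 after light, against 8.27, 7.76 and 7.68 in WT after light, a difference of -1.22 (SE 0.37, adjusted p = 0.0415). The groups did not overlap, but rb10 light replicate 2 came close to WT. In the dark the groups overlapped. Of the 12 fits without 1 array, the call of AT1G79970 held in those without an rb10 dark array (-0.82 to -0.62 over the 12, adjusted p up to 0.137), and that of AT1G19200 in those without rb10 dark replicates 2 or 3 or rb10 light replicate 2 (-1.63 to -0.99, adjusted p up to 0.134). AT2G25690 (0.54, SE 0.24) and AT5G49120 (-0.10, SE 0.25) did not pass after light. Of these 4 loci, then, 2 passed as lower in rb10 after light and 0 as higher, beside 9.47% and 9.72% of tested probe sets. None passed in the other comparisons with every array.

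The other 4 of these 8 loci had no probe set of their own, and 2 of them were paired together with a pair of probe sets that held identical values. That signal cannot be assigned to either gene. It read 8.89, 8.77 and 9.22 in rb10 after light and 9.47, 9.40 and 9.71 in rb10 in the dark, against 8.41, 8.49 and 8.57 in WT after light and 9.47, 9.63 and 9.90 in WT in the dark. It fell with light by 0.57 in rb10 (SE 0.15, adjusted p = 0.0463), a call lost without rb10 dark replicate 3 (-0.48, SE 0.16, adjusted p = 0.134), and by 1.18 in WT (SE 0.15, adjusted p = 0.000581). The light effects differed by 0.61 (SE 0.21), which did not pass, and after light rb10 exceeded WT by 0.47 (SE 0.15, adjusted p = 0.0507), or at adjusted p = 0.0392 without that array.

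**Figure D4:**
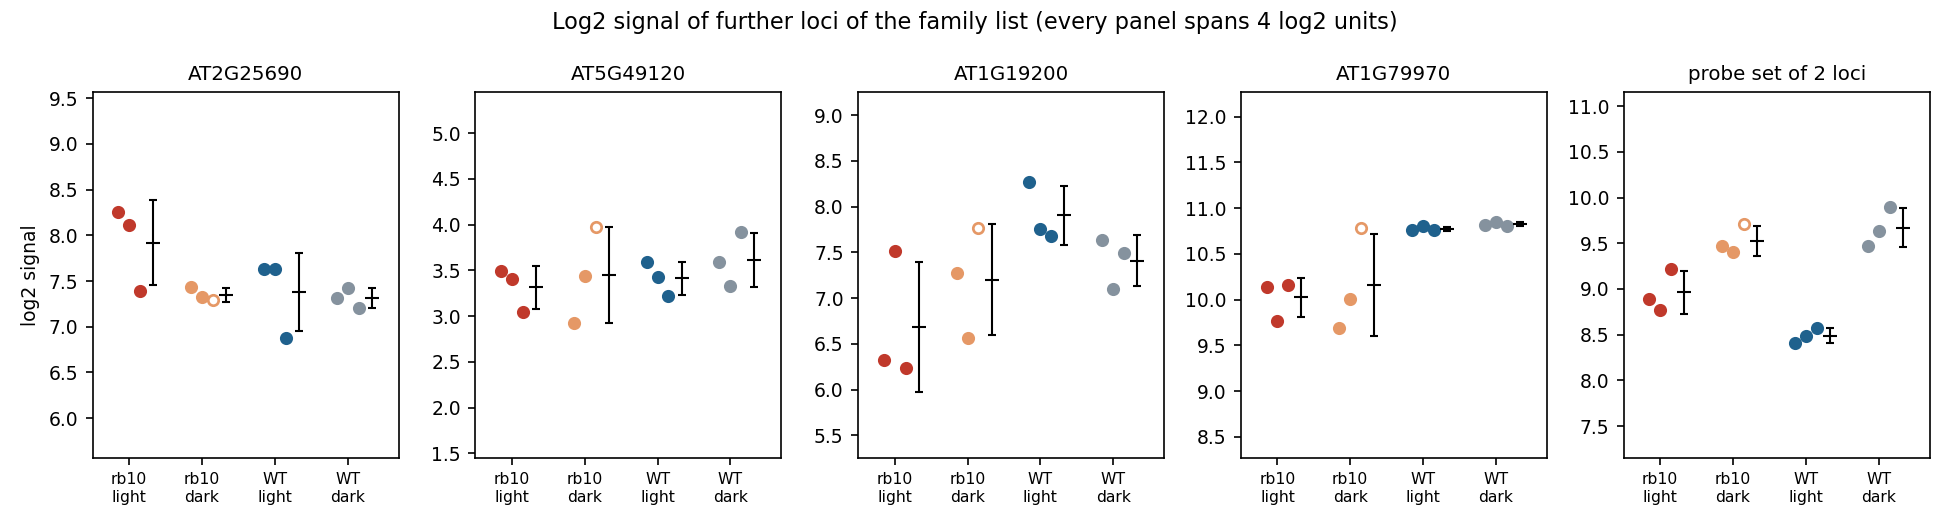
Log2 signal on each array for 4 further loci listed as FLZ genes and for the probe set paired with 2 more, by group, with 3 points per group, mean and SD; the open point is rb10 dark replicate 3. AT1G79970 reads 9.77 to 10.16 in rb10 after light and 10.76 to 10.80 in WT after light, and the shared probe set is lowest in WT after light.

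Among genes around SnRK1, most of the lists could not be measured: 3 of 9 SnRK1 subunits and upstream kinases, 2 of 5 genes of the TOR complex, 2 of 16 starvation genes, 2 of 6 bZIP factors and 0 of 7 class II trehalose phosphate synthases had a probe set of their own. AKINBETA1, a regulatory beta subunit of SnRK1, read 11.93, 11.79 and 12.03 in rb10 after light, against 12.28, 12.34 and 12.39 in WT after light. The difference was -0.42 (SE 0.10, adjusted p = 0.0134), making it the 1 of 3 of its list to pass there, where 9.47% of all tested probe sets were lower. Without rb10 light replicate 2 it did not pass (-0.36, adjusted p = 0.0565). It also fell by 0.42 with light in rb10 (adjusted p = 0.0258), a call lost without rb10 dark replicates 1 or 3 or rb10 light replicates 1 or 2 (-0.42 to -0.36, and -0.37 at adjusted p = 0.0696 without rb10 dark replicate 3). The other subunit genes, AT4G16360 and AT2G28060, passed in none of the 5 comparisons.

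RAPTOR1 was lower in rb10 after light (-0.66, SE 0.15, adjusted p = 0.0113), whereas its paralogue RAPTOR2 differed by -0.01 (SE 0.13). In the dark RAPTOR1 differed by -0.46 (adjusted p = 0.255), or by -0.64 without rb10 dark replicate 3. That array stood out by its RAPTOR1 signal, so the second value is a description and no test. Both measured starvation genes were lower in rb10 after light, ATL8, which encodes a ubiquitin ligase of the RING type (-2.06, SE 0.31, adjusted p = 0.00144), and MCCB, an enzyme gene of leucine breakdown (-1.12, SE 0.14, adjusted p = 0.000443). Of all tested probe sets 9.47% were lower there. The lists beside the 10 FLZ genes were chosen with earlier results of these data known. Adjusted p for the genes of those lists are therefore a description and test no list. In the dark the differences were -0.84 for ATL8 (adjusted p = 0.271) and -0.20 for MCCB (adjusted p = 0.521). Without rb10 dark replicate 3 they were -1.26 (adjusted p = 0.00434) and -0.31 (adjusted p = 0.188). Light effects in rb10 were -1.88 for ATL8 (adjusted p = 0.00345) and -1.08 for MCCB (adjusted p = 0.00071). The light effects of ATL8 differed between rb10 and WT by -1.22 (adjusted p = 0.247). Those of MCCB differed by -0.93 (adjusted p = 0.0338), a call that held in 2 of the 12 fits without 1 array. Without rb10 dark replicate 3 the MCCB difference did not pass (-0.82, adjusted p = 0.0517). bZIP44, of the S1 class of bZIP transcription factors, was higher in rb10 after light, at 8.37, 8.40 and 8.30, against 7.56, 7.42 and 6.58 in WT after light (1.17, SE 0.24, adjusted p = 0.00751). It was 1 of 2 of its list, where 9.72% of all tested probe sets were higher. The other, BZIP53, did not pass in any comparison.

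Of the tissue markers, 1 of 3 of the stomatal lineage (SPCH), 1 of 3 of cotyledon and plastid (RCA) and 0 of 1 of root passed between rb10 and WT after light. SPCH and RCA were higher in rb10, where 9.72% of all tested probe sets were higher and 9.47% lower. SPCH, which starts the stomatal lineage, read 7.34, 7.63 and 7.21 in rb10 after light, against 6.37, 6.17 and 5.93 in WT after light (1.24, SE 0.21, adjusted p = 0.00261). Like AT1G74940 it fell in WT with light, by 0.93 (SE 0.21, adjusted p = 0.0194). That call was lost without WT dark replicates 1 or 3 or WT light replicates 2 or 3 (-0.93 to -0.82). In rb10 the light effect of SPCH was 0.44 (SE 0.21, adjusted p = 0.272), or 0.27 without rb10 dark replicate 3. The light effects of SPCH differed by 1.37 (SE 0.29, adjusted p = 0.0377), a call that held in 2 of the 12 fits without 1 array. Without rb10 dark replicate 3 that difference did not pass (1.20, adjusted p = 0.0630). FMA, a factor of guard cell formation, behaved otherwise, with light effects of -1.30 in rb10 (SE 0.34, adjusted p = 0.0416) and -1.22 in WT (SE 0.34, adjusted p = 0.0553) and a difference after light of 0.04. Its call in rb10 held in 2 of the 12 fits without 1 array, those without rb10 light replicates 1 or 3. MUTE, the third stomatal marker, passed in none of the 5 comparisons. The summed signal of the 3 measured stomatal markers was 7.89 to 8.55 in rb10 after light and 8.55 to 8.80 in rb10 in the dark, against 7.35 to 7.82 in WT after light and 8.53 to 8.79 in WT in the dark, in log2. That of the 3 cotyledon and plastid markers was 12.26 to 12.43 in rb10 after light and 12.14 to 12.34 in rb10 in the dark, against 11.97 to 12.20 in WT after light and 11.78 to 12.24 in WT in the dark. RCA, the activase of the carbon-fixing enzyme Rubisco, was higher in rb10 after light (0.48, SE 0.11, adjusted p = 0.0129), a call lost without WT light replicate 2 (0.43). It rose with light by 0.72 in rb10 (adjusted p = 0.00247) and by 0.51 in WT (adjusted p = 0.0180), the last lost without WT dark replicates 1 or 2 or WT light replicates 1 or 3 (0.46 to 0.52). PORB, an enzyme of chlorophyll synthesis, fell with light in rb10 by 1.27 (adjusted p = 0.00708) and differed by -0.22 from WT after light (adjusted p = 0.569). In the dark it differed from WT by 0.67 (adjusted p = 0.255), or by 0.97 (adjusted p = 0.00582) without rb10 dark replicate 3. LHB1B2, a light-harvesting protein gene, passed in none of the 5 comparisons with every array, and without rb10 dark replicate 3 its light effect in rb10 was 1.48 (adjusted p = 0.00758). Without that array it was also lower in rb10 than in WT in the dark (-1.09, adjusted p = 0.0279). After light it differed from WT by 0.24 (adjusted p = 0.693). The 1 root marker, EXPA7, an expansin gene of root hairs, ranged from 5.21 to 6.13 in rb10 after light, against 5.09 to 5.23 in WT after light. The part of tissue make-up in the FLZ differences was not tested.

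By Pearson correlation over the 12 arrays, the genes with a pattern most like that of AT4G17670 were AT3G50300 (r = 0.983), AT1G05870 (0.977), TUB7 (AT2G29550), a beta-tubulin gene (0.967), AT2G41330 (0.966) and AT5G10750 (0.963). AT3G50300 averaged 7.19 ± 0.46 in rb10 after light and 4.51 ± 0.62 in rb10 in the dark, against 3.90 ± 0.20 in WT after light and 3.30 ± 0.26 in WT in the dark (SD, n = 3). Its group means spanned 3.89, those of AT4G17670 3.04 and those of the other 4 genes between 0.81 and 1.87, so the likeness is one of shape and not of size. For AT1G74940, the member with the widest range of group means after AT4G17670 (1.05), they were JKD (AT5G03150), a zinc finger gene of root patterning (r = 0.978), AT3G22970 (0.974), AT3G62570 (0.968), AT1G44970 (0.967) and B70 (AT4G21340, 0.962). B70 averaged 7.99 ± 0.15 in rb10 after light and 8.01 ± 0.12 in rb10 in the dark, against 6.47 ± 0.25 in WT after light and 7.95 ± 0.26 in WT in the dark (SD, n = 3). The arrays of a group share their condition, so these correlations describe 4 groups more than 12 separate points.

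**Figure D5:**
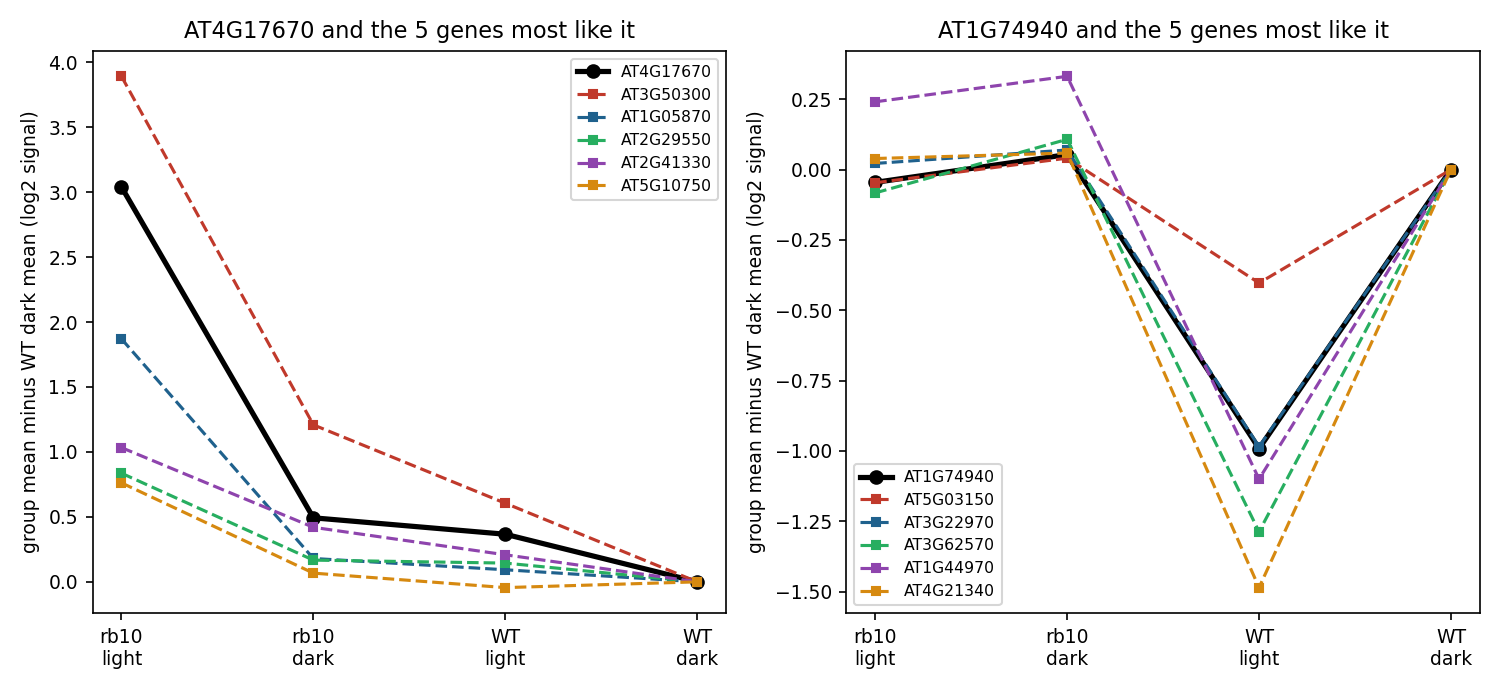
Group means minus the WT dark mean, in log2 signal, for AT4G17670 (left) and AT1G74940 (right), each with the 5 genes whose signals correlate best with it over the 12 arrays; lines only join the points of a gene. On the left every gene is highest in rb10 after light, and on the right every gene is lowest in WT after light.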

How the data were processed

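The deposited values were log2 signals per probe set for 12 arrays. Per the submitters' processing notes RMA and GCRMA were used; which of them made these values, and in what version, is not given there. The genome build is not given in the sources used here. They were used as deposited, with no filter. Probe sets were named through the platform annotation and a TAIR10.1 table, used for names only: 1 gene was found for 16722, several for 759 and none for 20927, and tests covered the 17481 that had any.

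All 12 arrays entered a single linear model of 4 group means, made with limma 3.58.1 in R 4.3.3 (8 residual degrees of freedom, 2.79 from the prior), with 5 contrasts and Benjamini-Hochberg adjustment within each. The test was tried on simulated data. Figures were drawn with matplotlib 3.10.9. The members, the 9 further lists and the tests were chosen with earlier results of these data known. Named were all measured loci listed as FLZ genes, RAPTOR1 and RAPTOR2, up to 4 called genes of each list or else the one with the smallest p, and the 5 genes most like AT4G17670 and the 5 most like the member with the next widest range. Genes named beyond this rule (AT4G16360, AT2G28060, BZIP53, MUTE, LHB1B2) complete small lists. Same-numbered arrays of different groups showed no strong shared deviation, as none of 18 correlations was over 0.1 (-0.043 to 0.073). A weak pairing is not excluded, since 8 of 12 arrays correlated best with one of their own number. Alternatives are listed in the closing section. The number of arrays limits the precision, and p-values reflect only how these samples vary.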

Additional observations from a re-analysis of the deposited data

Results flagged for a closer look

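For AT4G17670 and AT1G74940 the light effect differed between rb10 and WT past the threshold over all tested probe sets. AT4G17670 differed by 2.18, with a light effect of 2.55 in rb10 and 0.37 in WT. AT1G74940 differed by 0.89, with a light effect of -0.10 in rb10 and -0.99 in WT, and without rb10 dark replicate 3 the difference was 0.83 and did not pass. Both genes belong to a family chosen with these values known.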

How the results depend on the processing

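AT4G17670 passed in rb10 with light, in rb10 against WT after light and in the difference of light effects under every alternative that tested it (18, 18 and 17), as did AT1G74940 in WT with light and, with AT1G22160, in rb10 against WT after light (19 each). The alternatives were a replicate block, equal array medians, quantile normalization again, leaving out the lowest 25% of probe sets (AT4G17670 among them), testing unpaired probe sets too, a robust prior with a trend, the groups of a comparison alone, and leaving out each array in turn. The other calls were less stable: AT2G44670 kept its call under 12 of 19 after light and 8 of 19 with light in rb10, AT1G22160 under 9 of 19 with light in rb10, AT5G20700 under 6 of 19 after light, and AT1G74940 under 4 of 18 for the difference of light effects. The cause was not tested.

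The number of FLZ genes past the threshold with light in WT was 2 with the trended and robust prior, against 1. With light in rb10 it was 1 with the groups of the comparison alone, against 3, and 1 to 2 when an array was left out. Between rb10 and WT in the dark it was 0 to 1 when an array was left out, and after light 3 with equal array medians, against 5, and 3 to 5 when an array was left out. For the difference of light effects it was 1 with the replicate block, equal array medians, quantile normalization, the filter on low signal or every probe set tested, against 2, and 1 to 2 when an array was left out. Of single differences, that of AT1G78020 after light became 0.05 with equal array medians and 0.03 with quantile normalization. The labels do not say whether arrays of the same replicate number were handled together, and 8 of 12 arrays correlated best with one of their own number. With the replicate block 2 FLZ genes passed with light in rb10, against 3, and 4 in rb10 against WT after light, against 5.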
